A study of Mus musculus with 58 samples.

Results

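Clathrin adaptors and the proteins that work with them at the plasma membrane were described in the entorhinal cortex (EC) and primary visual cortex (PVC) of aged *APOE* targeted replacement mice. The genes were chosen by symbol: every subunit of the adaptor complexes AP-1 to AP-4, and named genes for the clathrin chains, dynamins, amphiphysins, endophilins, epsins, synaptojanin 1, CALM, AP180 and huntingtin interacting protein 1. The rule found 42 genes of the 31246 listed in each region, 24 of them adaptor subunits and 18 the others. The RNA came from male mice of the C57Bl/6 strain aged 14 to 15 months, 10 *APOE3/3* and 19 *APOE3/4*, and the same animal numbers were used for both regions, 58 libraries in all. All of these mice carry human *APOE* in place of the mouse gene, under the mouse promoter, and none is a wild-type control. The paper states that its mice, including those used for immunohistochemistry, came from 2 colonies. It does not give the colony of the mice used for RNA. Tissue containing each region was dissected, so that the RNA is of a piece of cortex and not of one cell type.

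Clathrin-coated vesicles carry membrane proteins from the cell surface and from the trans-Golgi network. Adaptor complexes choose the cargo: AP-2 works at the plasma membrane, AP-1 at the trans-Golgi network and endosomes, AP-3 on the route from endosomes to lysosomes and related organelles, and AP-4 at the trans-Golgi network without clathrin. Each complex is a tetramer of large, medium (mu) and small (sigma) subunits, and many subunits exist as paralogs encoded by separate genes. Epsins, CALM and AP180 help to bend the membrane and recruit clathrin, amphiphysins and endophilins bind the curved neck of the vesicle, dynamins cut it, and synaptojanin 1 removes the phosphoinositide that holds the coat. At synapses this machinery retrieves synaptic vesicle membrane after release, and *Bin1* and *Picalm* lie at loci linked to Alzheimer's disease risk in people.

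The values described are the authors' mean normalized counts, 1 for each gene and region, taken over all libraries of a region with both genotypes pooled. They therefore carry no replicate error, no comparison below has a test, and the difference between *APOE3/4* and *APOE3/3* mice was not analysed here. The EC and PVC tables were normalized separately and their totals differed 1.83-fold, so every PVC value was multiplied by 1.83, the median ratio over the 12097 genes with a mean of at least 100 in both tables. Levels of different genes were compared per kilobase of exon only. A ratio between regions was called past the fold when 1 region was at least 25% above the other, which is 0.32 on the log2 scale, among genes with an average of at least 10.

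Most of the machinery was abundant in both regions. The median member had a level of 1408 normalized counts per kilobase of exon in the EC, against 270 for all genes with an average of at least 10, and 19 of the 42 lay in the top 10% of those genes. Dnm1, the neuronal dynamin, was the highest of all, with 13825 per kilobase in the EC against 14425 in the PVC. Ap2m1, the AP-2 subunit that binds tyrosine-based cargo signals, came next at 8089 in the EC against 7751 in the PVC, and Epn1, an epsin, followed with 6264 and 6279. These 3 genes held the first 3 places in both regions.

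Below them stood a group of coat and neck proteins at about the same level. Cltc, the clathrin heavy chain, had 4903 per kilobase in the EC against 4352 in the PVC. Ap1s1, Amph, Bin1, Synj1 and Ap2b1 lay between 4010 and 4310 in the EC, and Ap2s1, Clta, Ap2a2, Ap2a1 and Snap91 between 3073 and 3965. The spread between mice of these levels is not known, so the order of neighbours within this group is given as listed and no further. The lowest genes were Epn3, an epsin best known from epithelia, with 16 per kilobase in the EC against 23.1 in the PVC, and Ap1m2, the mu subunit of the epithelial form of AP-1, with 71.6 and 44.6. Ap4e1, the large epsilon subunit of AP-4, was the next lowest at 123 in the EC against 120 in the PVC. Hip1, which links clathrin coats to actin and has no paralog among the members, was of moderate level, with 489 per kilobase in the EC and 479 for the PVC.

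**Figure D1:**
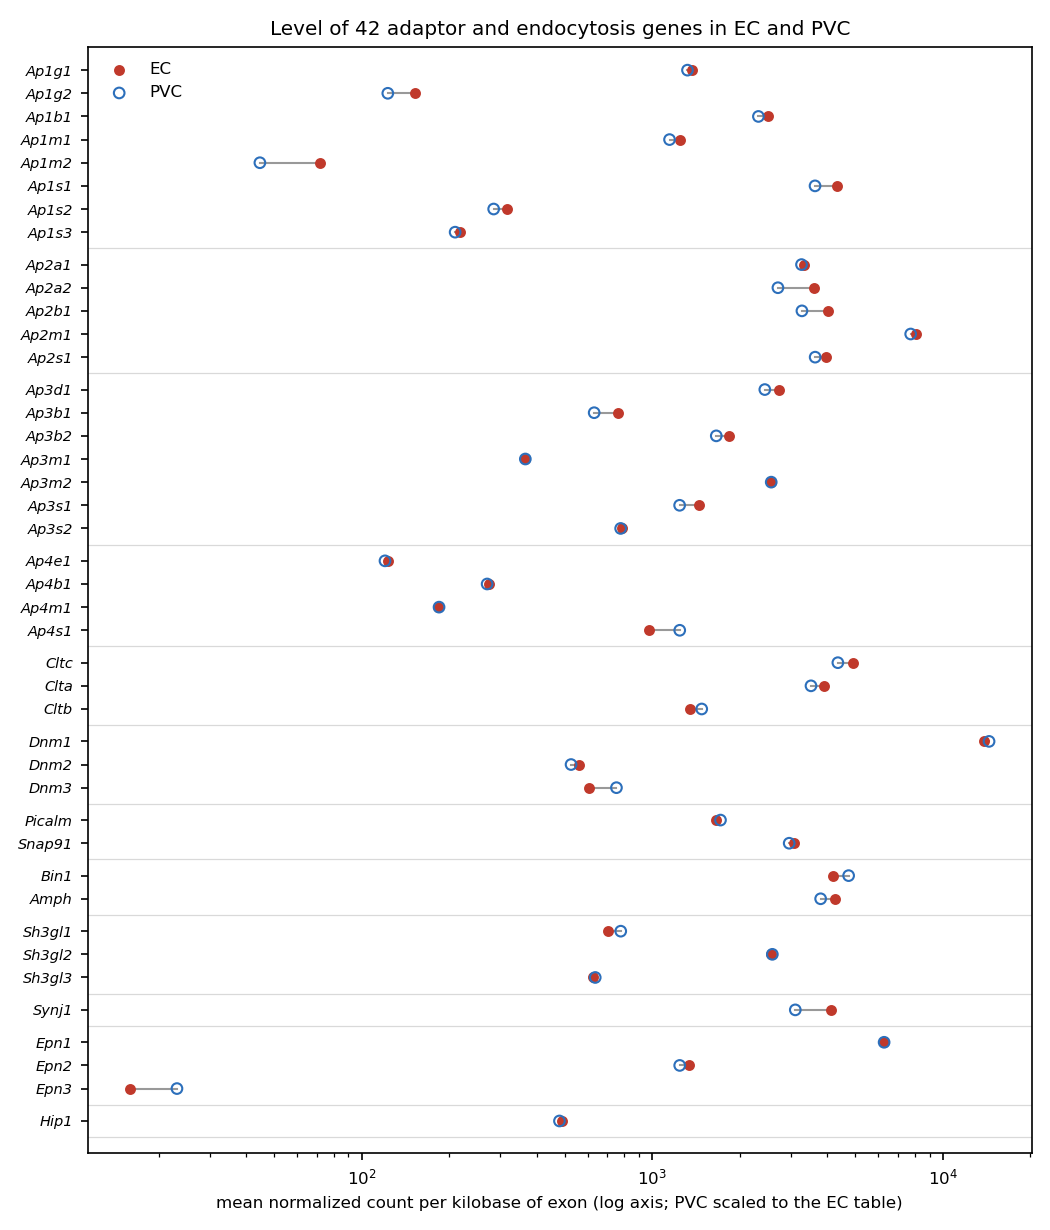
Mean normalized count per kilobase of exon (log axis) of the 42 genes, grouped by complex or family, in the EC (filled points) and in the PVC after scaling (open points), 1 pooled value per region with no error. The pairs of points lie close together along a range from 16 (Epn3, EC) to 14425 (Dnm1, PVC), and the widest gaps belong to Ap1m2, Epn3, Ap2a2, Synj1 and Ap4s1.

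The 4 adaptor complexes were present at different levels, and the balance of their subunits differed as well. The median of the subunit totals per kilobase, with paralogs of 1 subunit summed, was 5475 for AP-2 in the EC, 2672 for AP-3, 2011 for AP-1 and 229 for AP-4. AP-2 therefore had the highest transcript level and AP-4 the lowest, and the order was the same in the PVC, with 4802, 2366, 1882 and 227, and under both other treatments of length. Per kilobase of exon, the 4 subunit totals of AP-3 lay closest together, at 2738 for delta, 2607 for beta, 2935 for mu and 2232 for sigma in the EC, so that the highest was 1.31 times the lowest. In AP-2 that ratio was 2.04, in AP-1 3.67 and in AP-4 7.91. This order rests on the length correction. With none, the ratios were 6.39 for AP-2, 3.02 for AP-1, 2.19 for AP-3 and 2.16 for AP-4. That turns AP-4 from the least to the most even. The AP-3 mu and sigma totals also include Ap3m1 and Ap3s1, whose transcripts match other places in the genome over 32.0% and 86.0%.

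Per kilobase of exon, the sigma subunits of AP-1 stood above the rest. They had 4845 in the EC against 1523 for gamma, 2500 for beta and 1319 for mu. With no length correction the beta subunit Ap1b1 led, with 12259 normalized counts in the EC, more than the sigma genes together. In AP-4 the sigma subunit Ap4s1 had 972 per kilobase in the EC against 1243 in the PVC. The other AP-4 subunits, Ap4e1, Ap4b1 and Ap4m1, had 123, 274 and 183 per kilobase in the EC. Ap4s1 has 991 bases of exon and Ap4e1 11715, and with the longest transcript of each gene the highest AP-4 subunit was 5.05 times the lowest in the EC. With no length correction Ap4e1 led, with 1439 normalized counts in the EC against 963 for Ap4s1.

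**Figure D2:**
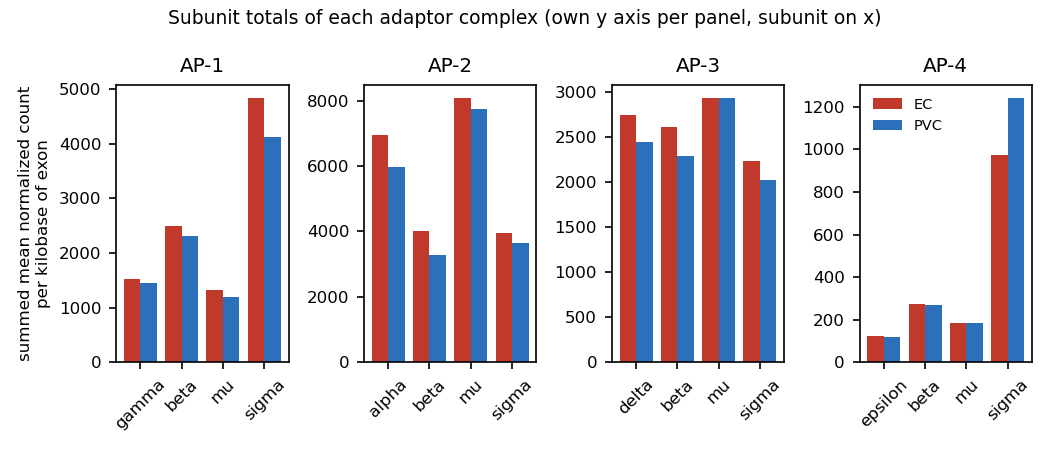
Summed mean normalized count per kilobase of exon of each subunit position (x axis) of AP-1, AP-2, AP-3 and AP-4 in the EC (red) and the scaled PVC (blue), with paralogs summed and a separate linear y axis for each complex. The AP-3 bars run from 2232 to 2935 in the EC, while the AP-4 sigma bars, 972 and 1243, stand over the other AP-4 subunits.

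Where a subunit or protein has several genes, 1 paralog usually supplied most of the transcript. These shares are taken within 1 region, so the scaling between the tables does not enter them. Ap1m1, the ubiquitous mu subunit of AP-1, made up 94.6% of the AP-1 mu transcript in the EC against 96.3% in the PVC, with epithelial Ap1m2 as the remainder. Dnm1 made up 92.2% of dynamin transcript in the EC against 91.9% in the PVC, with Dnm2, the ubiquitous dynamin, at 3.72% and 3.35%. Ap1g1 supplied 89.97% and 91.5% of AP-1 gamma, and Ap1s1 supplied 89.0% and 88.0% of AP-1 sigma. The minor AP-1 small subunits Ap1s2 and Ap1s3 held 6.53% and 4.51% of the sigma transcript in the EC.

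The genes of the neuronal form of AP-3, which sorts synaptic vesicle proteins, led their ubiquitous paralogs. Ap3m2 supplied 87.6% of the mu transcript in the EC against 87.5% in the PVC, the most even share of any group between the regions. Ap3b2 supplied 70.7% of the beta transcript in the EC against 72.5% in the PVC. The sigma subunits of AP-3 have no neuronal form, and Ap3s1 supplied 64.7% and 61.5% with Ap3s2 as the remainder, but the Ap3s1 share in the EC was 31.9% with no length correction, since Ap3s1 has 1479 bases of exon and Ap3s2 5797. AP180, encoded by the neuronal gene Snap91, exceeded its ubiquitous relative Picalm in the same way, with 64.9% and 63.3%. Endophilin A1, encoded by Sh3gl2, made up 65.8% and 64.7% of the endophilins, Sh3gl1 18.1% and 19.4%, and Sh3gl3 16.1% and 15.9%. Among the epsins Epn1 held 82.3% and 83.2%, Epn2 17.5% and 16.5%, and Epn3 0.210% and 0.307%.

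In 3 groups the share of a paralog differed by 3.92 points or more between EC and PVC. The AP-2 alpha subunits differed most. Ap2a2 had 3611 normalized counts per kilobase in the EC against 2707 in the PVC, while Ap2a1 had 3329 and 3263. Ap2a2 was thus 52.0% of the alpha transcript in the EC against 45.3% in the PVC, a difference of 6.70 points, and the ratio of Ap2a2 to Ap2a1 was 1.31 times as high in the EC. That comparison of ratios needs neither exon lengths nor scaling, whereas which alpha paralog was the larger in the EC depends on the length used, the Ap2a2 share being 46.5% with the longest transcripts.

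Of the amphiphysins, Bin1 had the larger share in the PVC. Bin1, or amphiphysin 2, is expressed in oligodendrocytes as well as neurons, and Amph, or amphiphysin 1, is enriched in neurons. Bin1 had 4179 per kilobase in the EC against 4740 in the PVC, and Amph 4258 and 3797. The Bin1 share was 49.5% in the EC against 55.5% in the PVC, and the ratio of Bin1 to Amph was 1.27 times as high in the PVC. The oligodendrocyte markers moved with it: 6 of 6 were past the fold with the PVC higher, their summed mean normalized count being 45350 in the EC against 115732 in the PVC, 2.55-fold. Their part in the Bin1 values was not tested, and in pieces of tissue fewer cells of a type and less RNA per cell cannot be told apart. The clathrin light chains were the other group, with Clta at 74.3% in the EC against 70.4% in the PVC, and the ratio of Clta to Cltb was 1.22 times as high in the EC. Light chains together had 1.07 times the level of the heavy chain per kilobase in the EC against 1.15 times in the PVC, and which chain was the higher depends on length: the ratios were 0.965 and 1.05 with the longest transcripts, and 0.326 and 0.366 with no length correction.

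**Figure D3:**
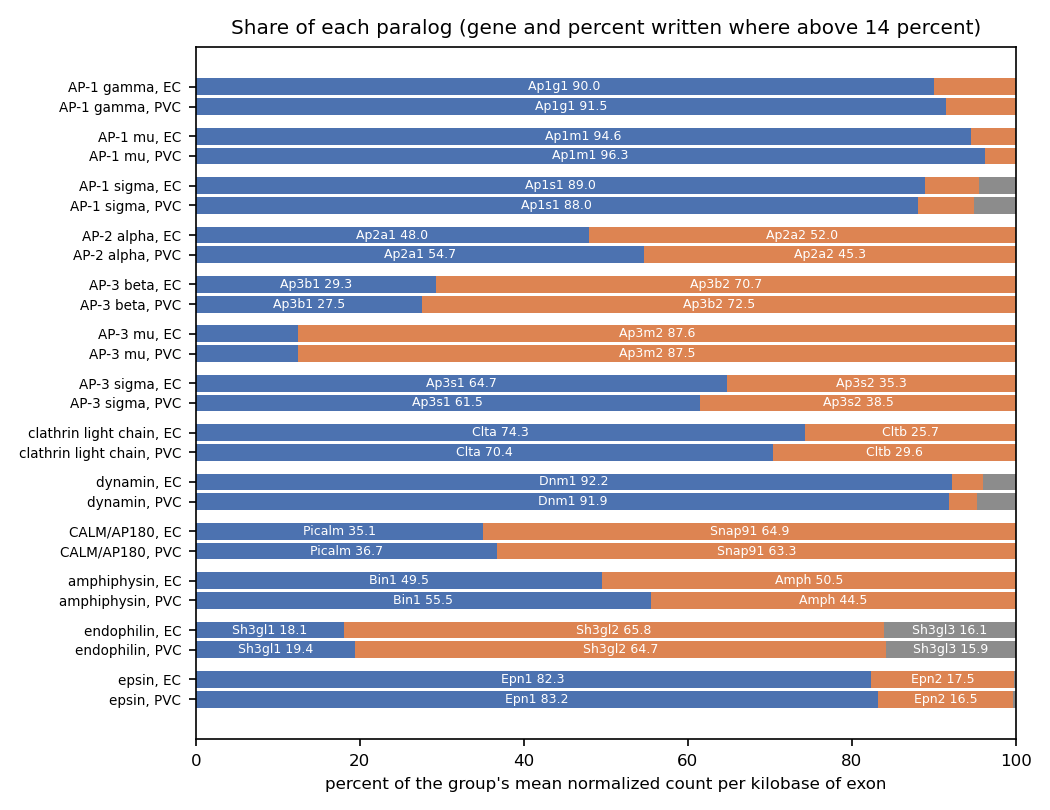
Share of each paralog, as a percentage of the summed mean normalized count per kilobase of its subunit or family, in the EC and PVC, with each bar adding to 100. The boundary between Ap2a1 and Ap2a2 and that between Bin1 and Amph shift most between the paired bars, by 6.70 and 5.99 points, while the Ap3m2 share is 87.6% and 87.5%.

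Levels in the 2 regions were close for most of the 42 genes. All 42 passed the minimum average of 10, and 3 were past the fold with the EC higher, which is 7.14% of them against 17.6% of the 16864 genes over that minimum. With the PVC higher there were 2, or 4.76% against 10.4%, and the other 37 lay within the fold. The SD of the log2 ratio was 0.21 over the members and 0.51 over all genes. Low genes scatter more, so the comparison was repeated at higher levels. Of the 41 members with an average of at least 100, 3 were past the fold with the EC higher and 1 with the PVC higher, where the genes of that level gave 12.7% and 9.46%. Of the 36 members with an average of at least 1000, 2 and 1 were past the fold, where all such genes gave 8.32% and 8.15%. At that level the SD was 0.17 for the members and 0.32 for all genes. The median absolute log2 ratio there was 0.123 for the members and 0.116 for all genes. By that measure the typical member was no closer to parity than other genes of that level. With the minimum of 10 it was 0.123 for the members and 0.160 for all genes. With a fold of 1.5 in place of 25%, 1 of the 42 remained with the EC higher (Ap1m2) and 0 with the PVC higher, where all genes gave 8.79% and 5.16%.

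The EC was the higher of the 2 regions for 29 of the 42, and this was uneven between the groups. Among the adaptor subunits it was higher for 21 of 24, and among the other proteins for 8 of 18. The median log2 ratio of EC over PVC was 0.11 for the adaptor subunits, −0.01 for the others and 0.03 for all genes, of which 9264 of 16864 were higher in the EC. With an average of at least 1000, the EC was higher for 25 of 36 members and for 3895 of 8009 genes. The medians there were 0.06 and −0.01. Most of these differences were small, and the subunits of 1 complex are not independent measurements. Signs near 0 also depended on the scaling, since Ap3m1 and Epn1 were higher in the EC when scaled by the sum.

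The member with the highest ratio was Ap1m2, at 124 normalized counts in the EC against 77.6 in the PVC after scaling, a log2 ratio of 0.67. It was also the lowest of the adaptor subunits, and before scaling its PVC mean was 42.3. Ap2a2, one of the large subunits through which AP-2 binds the membrane and accessory proteins, had 16754 in the EC against 12556 in the PVC, 1.33-fold. Synj1, the lipid phosphatase of uncoating, had 33410 in the EC against 25124 in the PVC, also 1.33-fold. Ap2a2 and Synj1 were therefore the 2 abundant members past the fold with the EC higher, and they ranked above 86.7% and 86.5% of all genes by ratio. The other AP-2 subunits differed less, as Ap2b1 was 1.22-fold, Ap2s1 1.09-fold, Ap2m1 1.04-fold and Ap2a1 1.02-fold in the EC over the PVC.

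With the PVC higher, Epn3 had 65.1 normalized counts in the EC against 94.1 in the PVC, 1.44-fold, and Ap4s1 had 963 and 1232, 1.28-fold. Epn3 is the lowest member of all, and Ap4s1 was the only subunit of AP-4 to differ past the fold, since Ap4e1, Ap4b1 and Ap4m1 had log2 ratios of 0.03, 0.02 and −0.01. Markers of the choroid plexus, an epithelium, were low and went both ways. Their summed mean normalized count was 378 in the EC against 813 in the PVC, with Ttr higher in the PVC, Kcnj13 higher in the EC and none of the 4 at 0. Their part in the values of the epithelial genes Ap1m2 and Epn3 was not tested.

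Several members lay just inside the fold. Dnm3, a dynamin found mainly in brain and testis, had a log2 ratio of −0.32 with 9032 normalized counts in the EC against 11267 in the PVC, and it passed the fold, at −0.35, when each gene was centred on genes of like level and length. Ap1g2, the minor gamma subunit of AP-1, had a log2 ratio of 0.31 with 638 normalized counts in the EC and 514 for the PVC, and Ap2b1 one of 0.29 with 25277 and 20638. Ap3b1 and Ap1s1 had log2 ratios of 0.28 and 0.25. On the other side Bin1 had −0.18, with 10242 normalized counts in the EC and 11617 for the PVC, Sh3gl1, the widely expressed endophilin A2, −0.15, with 1456 and 1612, and Cltb −0.14. In AP-2 every subunit was thus somewhat higher in the EC estimate, from 0.03 for Ap2a1 to 0.42 for Ap2a2, with Ap2b1, the large subunit that binds clathrin, second. The other members lay between, and among the closest to parity were Ap3m2, the mu subunit of neuronal AP-3, and Epn1, with EC levels 1.001 and 0.998 times those of the PVC.

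**Figure D4:**
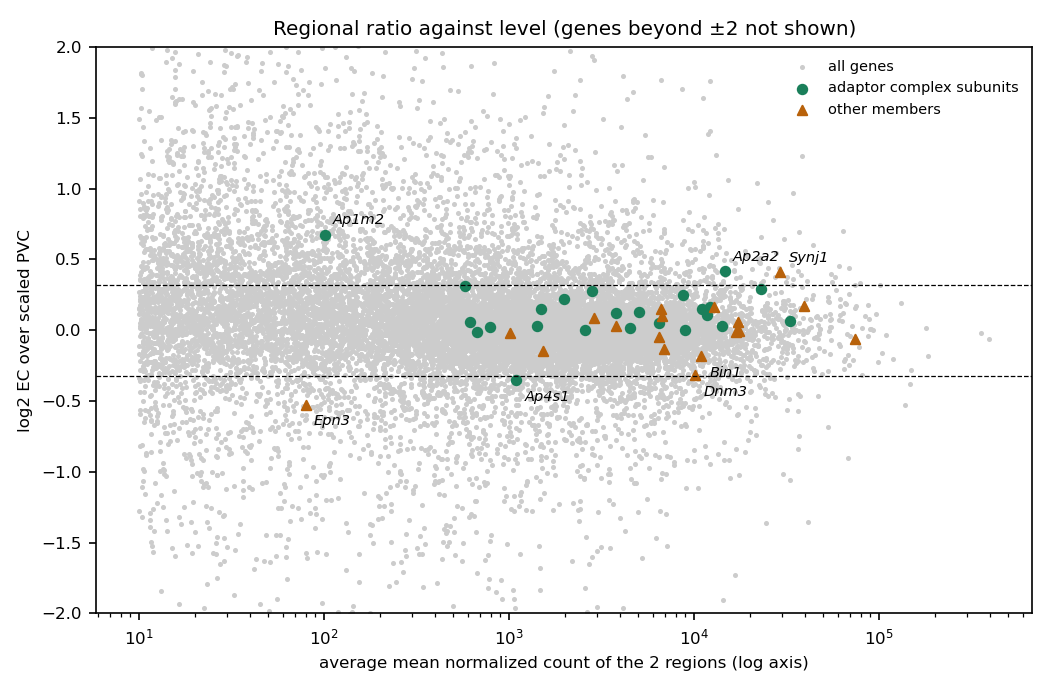
Log2 ratio of the EC over the scaled PVC (y axis) against the average mean normalized count of both regions (log x axis) for all genes with an average of at least 10 (grey), the 24 adaptor subunits (circles) and the 18 other members (triangles), with dashed lines at that fold of 25%. Genes with ratios outside the y range are not drawn, and 5 members lie beyond the lines, Ap1m2, Ap2a2 and Synj1 above and Ap4s1 and Epn3 below.

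The sequences upstream of the members were examined for features that the choice by symbol did not use. RefSeq windows of the 250 bases before the start of each gene, on GRCm38.p6, were matched by symbol (the first window where a gene has several) for 37 of the 42 members, leaving out Ap1m1, Ap3m2, Epn3, Ap3s1 and Bin1. The letters GGGCGG, the GC box bound by Sp1, were searched on both strands, together with the TATA box TATAAA, the E-box CACGTG and the cyclic AMP response element TGACGTCA, none of which contains another. A GC box was found in 20 of 37 member windows, 54.1% against 32.7% of all 32851 windows. TATAAA was in 1 member window, that of Sh3gl1, or 2.70% against 12.4%. The median GC content was 60.0% for the members and 52.4% for all windows, and the median ratio of observed to expected CpG was 0.816 and 0.373. The member windows were thus richer in GC and CpG than the median window, and Picalm had the most GC boxes, with 6. All windows were taken whatever the level or type of the gene, and were not matched to the members. Whether these differences are particular to the members was therefore not tested. TGACGTCA was in 3 windows (Ap2b1, Cltb and Sh3gl2), 8.11% against 1.55%, and CACGTG in 4, 10.8% against 6.02%.

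The windows are shown for the AP-2 alpha paralogs, whose shares differed most between the regions, and for Synj1, Ap1m2 and Ap4s1, the other members past the fold that have one. They are written 5′ to 3′ along the gene, with GC boxes on either strand in capitals. Ap2a1 (chr7:44929491-44929740, minus strand) has 3 GC boxes and Ap2a2 (chr7:141561930-141562179, plus strand) has 2, while Synj1 (chr16:91011309-91011558, minus), Ap1m2 (chr9:21312334-21312583, minus) and Ap4s1 (chr12:51690716-51690965, plus) have none.
Ap2a1: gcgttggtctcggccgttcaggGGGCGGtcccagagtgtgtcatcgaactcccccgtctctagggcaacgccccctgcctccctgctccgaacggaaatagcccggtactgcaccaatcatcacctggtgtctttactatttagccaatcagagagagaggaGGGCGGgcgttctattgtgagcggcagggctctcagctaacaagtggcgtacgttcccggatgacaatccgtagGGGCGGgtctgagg
Ap2a2: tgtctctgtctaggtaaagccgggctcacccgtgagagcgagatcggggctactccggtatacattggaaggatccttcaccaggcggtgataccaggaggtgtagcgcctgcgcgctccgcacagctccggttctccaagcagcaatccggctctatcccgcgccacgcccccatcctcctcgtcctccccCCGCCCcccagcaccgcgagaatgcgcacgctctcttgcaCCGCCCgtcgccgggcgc
Synj1: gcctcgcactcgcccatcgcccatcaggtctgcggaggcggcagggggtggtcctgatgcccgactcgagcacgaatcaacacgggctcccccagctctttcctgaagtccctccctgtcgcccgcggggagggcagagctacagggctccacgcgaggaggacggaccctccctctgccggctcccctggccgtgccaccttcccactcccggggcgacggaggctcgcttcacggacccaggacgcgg
Ap1m2: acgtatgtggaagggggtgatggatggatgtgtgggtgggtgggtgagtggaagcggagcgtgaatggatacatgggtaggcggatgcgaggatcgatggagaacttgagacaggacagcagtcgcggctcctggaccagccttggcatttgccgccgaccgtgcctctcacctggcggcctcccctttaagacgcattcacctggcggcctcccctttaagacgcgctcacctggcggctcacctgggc
Ap4s1: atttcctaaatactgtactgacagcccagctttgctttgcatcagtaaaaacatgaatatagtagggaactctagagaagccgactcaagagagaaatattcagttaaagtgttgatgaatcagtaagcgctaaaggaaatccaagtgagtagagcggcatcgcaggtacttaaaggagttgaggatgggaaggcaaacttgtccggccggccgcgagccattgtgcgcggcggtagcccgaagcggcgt
A match is a string of letters and not a measured binding site, and the RNA data do not show which start each gene used.

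On the NCBIM37 build to which the reads were aligned, Ap2a2 spans chr7:148748079-148818910 on the plus strand and Ap2a1 chr7:52155743-52184866 on the minus strand, so the paralogs lie far apart on 1 chromosome. Synj1 spans chr16:90936337-91011553 and Dnm3 chr1:163912584-164408165, both on the minus strand. The transcripts were compared with the genome for other places that match over at least 149 bases, the read length, at 98% identity or more. Such a place may differ from the transcript at some bases. For 37 members none was found. Ap3s1 matched 2 other places over 86.0% of its transcript and Ap2m1 1 place over 65.4%, Ap3m1 matched 1 over 32.0% and Ap1s2 1 over 9.25%, and part of Ap1s3, 11.7%, is a repeat. Levels of these 5 genes are uncertain where reads could be shared, and none of them was past the fold. The same holds for the subunit totals and paralog shares that include them, such as mu and sigma of AP-3, and for the rank of Ap2m1. Among the members themselves only Ap2a1 and Ap2a2 share stretches of 50 identical bases.

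Exons of another gene on the opposite strand cover part of 11 members, and the library kit does not keep the strand. More than 10% of the exon bases were covered in 3, namely Ap3m1 with 29.8% (Vcl), Ap2a1 with 16.7% (Fuz) and Ap4m1 with 11.3% (Mcm7 and Taf6). For these genes, reads of the member and of its neighbour cannot be told apart in the covered part. Ap2a2 was covered over 5.20%, Synj1 over 0.742% and Dnm3 over 2.65%.

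A second list held 40 other genes of the same pathway. All 40 had an average of at least 10, 3 were past the fold with the EC higher and 3 with the PVC higher, where all genes gave 17.6% and 10.4%. The EC was the higher region for 17 of the 40, against 29 of the 42 members, and the median log2 ratio of the list was −0.03. Past the fold with the EC higher were Dab2, Ston1 and Sh3kbp1. Dab2, an adaptor for lipoprotein receptors, had 833 normalized counts in the EC against 480 in the PVC. Ston1 had 258 and 154, and Sh3kbp1 had 2919 and 1800. Past the fold with the PVC higher were Pacsin3, Numb and Pip5k1c. Pacsin3 had 1204 in the EC against 2011 in the PVC. Numb, an adaptor for Notch, had 1926 and 2963, and Pip5k1c had 22896 and 31691. Pip5k1c encodes the kinase that makes the phosphoinositide which AP-2 binds and which Synj1 removes, and its log2 ratio of −0.47 had the opposite sign to the 0.41 of Synj1. Synj2 of the same list, synaptojanin 2, did not share the sign of Synj1, with a log2 ratio of −0.23. Hspa8, the chaperone that strips clathrin from vesicles, and its partner Dnajc6 had log2 ratios of 0.00 and 0.05.

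The labelled regions were checked against markers of cell types, none of which was at 0. Layer 4 and upper cortex genes were past the fold in 4 of 4 with the PVC higher, with a sum of 9773 in the EC against 17576 in the PVC. Of the 4 genes listed for hippocampal granule cells, 3 were higher in the EC, with sums of 2053 and 1565. Most of those sums was Calb2, with 1283 in the EC and 974 in the PVC, and whether it came from granule cells was not tested. C1ql2 had 325 in the EC and 92.6 in the PVC, and Dsp 35.7 and 17.8. Prox1 went the other way within the fold, with 410 and 481, so this list was not uniform. General neuronal markers summed to 239774 and 300905 over the 4 of 5 that were listed, with Stmn2 higher in the EC and Snap25 in the PVC. Excitatory markers summed to 255429 and 274419 with 1 of 4 past the fold, inhibitory markers to 28891 and 35328 with 2 of 4, and both in favour of the PVC. Astrocyte markers summed to 62753 and 51112. Of these 5, 4 were higher in the EC, 2 of them past the fold, and 1 was past it with the PVC higher. Microglial and endothelial markers had 0 of 5 past the fold each. The neuronal paralogs Dnm1, Snap91, Amph and Ap3b2 were within the fold, with log2 ratios of −0.06, 0.05, 0.17 and 0.15. The excitatory and inhibitory sums were also within it, with the PVC 1.07-fold and 1.22-fold higher. The general neuronal sum lay just past it, with the EC at 0.797 times the PVC. Most of the excitatory sum was Camk2a, with 172659 in the EC and 195980 in the PVC. Of the excitatory markers 1, Slc17a7, was higher in the EC, with a log2 ratio of 0.16, and 3 in the PVC. Tubb3, a general marker, had −0.01. The part of these differences in tissue makeup in the ratios of the members was not tested.

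**Figure D5:**
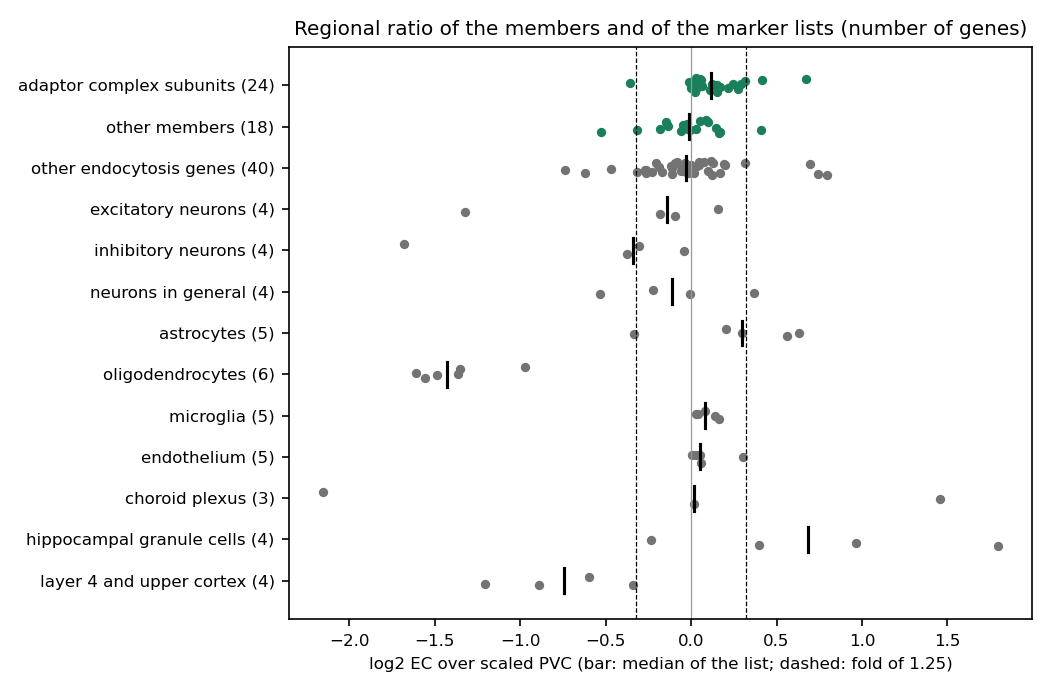
Log2 ratio of the EC over the scaled PVC for each gene (points) of the members (green) and of the pathway and marker lists (grey), with the median as a bar, the number of genes in brackets and dashed lines at that fold of 25%. The members cluster around 0, with medians of 0.11 and −0.01, while the 6 oligodendrocyte markers lie at −0.97 or lower.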

How the data were processed

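Poly(A)+ RNA of 58 libraries was sequenced by the authors as single-end reads of 149 bases, 10 *APOE3/3* and 19 *APOE3/4* per region, and 7 libraries were run more than once. According to the methods and the submitters' processing notes, reads were aligned to mm9 (NCBIM37) with TopHat2 2.0.6 and Bowtie2 2.0.2.0, counted per gene with HTSeq and normalized with DESeq2 1.10.1, separately for each region. The authors deposited 1 table per region. The authors made its mean normalized count, treated here as a signal, by dividing counts by size factors and averaging over all libraries of the region, both genotypes pooled, and no values of single mice were used. The other 5 columns (log2 fold change between genotypes, its standard error, the Wald statistic, the *p*-value and the adjusted *p*-value) hold the authors' own comparison and were not used. No test could be made from 1 pooled value per region, and total counts of single libraries were not analysed.

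Ratios were log2((EC + 1)/(scaled PVC + 1)). Lengths were the union of a gene's exons in GENCODE on NCBIM37, found for all 42 members and 95.1% of genes with an average of at least 10. Repeated sequence was searched with BLASTN 2.17.0. Scripts ran in Python 3.11.15 with pandas 2.3.3 and numpy 2.4.6, and figures were drawn with matplotlib 3.10.9. The scaling, the ratio and the centring were tested on simulated data made without variation between mice. The shares, subunit totals and sequence searches were not tested in that way.

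The members and lists were chosen with earlier results of these data known. All members were accounted for, with full values for those on which the order of levels, the paralog shares or the 5 largest ratios in each direction turned, and of the second pathway list the 3 largest ratios in each direction were named. Hspa8, Dnajc6 and Synj2 of that list were named after their values were seen. Alternatives were other scalings, a pseudocount of 10, other minimums and folds, and other lengths. The minimum of 1000 and the count without members that match other places were chosen after seeing the data.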

Additional observations from a re-analysis of the deposited data

How the results depend on the processing

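The values have no error, since both tables hold 1 pooled value per gene, and depth could not be weighed. No paired analysis was possible because the values used are 1 pooled mean per region, although the same 29 animal numbers stand in both regions. Scaling by the sum or the 75th percentile, centring on genes of like level and length and a pseudocount of 10 left 167 of 168 ratios of single members on the same side of the fold. The exception was Dnm3, at −0.35 after centring. At a fold of 1.5 only Ap1m2 remained with the EC higher (1 gene, 8.79% of all genes) and 0 with the PVC higher (5.16%). A minimum of 100, and one of 1000 chosen after seeing the data, each left 1 gene with the PVC higher, Ap4s1.

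Shares within a region depended on the length used. Which length is nearest to the transcripts present was not tested. The difference in share between the regions was recomputed for the leading paralog of each group, with both other lengths. All 26 values moved by less than 2 points. That margin is wider than most of the differences themselves, so it is a weak check for the small ones. Dnm1 went from 0.39 to 1.47 points with no length correction. Ap2a2 had 6.70 points, against 6.58 with the longest transcript and 6.70 with no length correction. With the longest transcript of each gene, the EC shares were 46.5% for Ap2a2, 80.0% for Ap3b2, 66.5% for Clta, 74.5% for Snap91 and 79.6% for Sh3gl2, and the highest over the lowest AP-4 subunit was 5.05. With no length correction, the EC shares were 81.2% for Ap1s1, 79.1% for Ap3b2, 77.7% for Ap3m2, 31.9% for Ap3s1, 51.7% for Clta, 85.8% for Dnm1, 73.4% for Snap91, 57.0% for Amph, 87.2% for Sh3gl2 and 71.5% for Epn1. The highest over the lowest subunit was then 6.39 for AP-2, 2.19 for AP-3 and 2.16 for AP-4. Clathrin light over heavy chain was then 0.326 in the EC, and 0.366 in the PVC.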
